A study of Homo sapiens with 10 samples.

Results

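The expression of 10 genes of glucose uptake and glycolysis was followed through senescence and METTL3 depletion in IMR90, a widely used line of fibroblasts from human fetal lung. They are the glucose transporters SLC2A1 and SLC2A3, the hexokinases HK1 and HK2, the phosphofructokinase PFKP, its regulator PFKFB3, the later enzymes PGK1, ENO1 and PKM, and the lactate dehydrogenase LDHA. The genes were chosen by name, and 10 of 10 symbols matched 1 Ensembl identifier each among the 57736 gene IDs of the count table. RNA was sequenced from 10 samples in 5 groups of 2. All cells had been infected with a retrovirus, which was empty in the control group and expressed RAS, an oncogene that drives fibroblasts into senescence, in the others. siRNA followed at day 4, was repeated the next day together with a lentivirus for the knock-ins, and RNA was taken 48 hours later. The control group was not senescent and received a control siRNA. The senescent control group expressed RAS and received the same siRNA. The METTL3 knockout group expressed RAS and received siRNA against METTL3, the catalytic subunit of the complex that methylates adenosine in mRNA. The wild type knock-in and mutant knock-in groups were RAS-expressing knockout cells that also received a lentivirus with wild type or mutant METTL3. "Knockout" follows the sample titles, although the protocol describes siRNA.

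Several labels limit these groups. The titles and column names give METTL3, whereas the treatment text attached to the samples speaks of METTL14, its partner protein. The labels do not name the METTL3 mutation. Every senescent group expressed RAS and the control group did not, so RAS expression and senescence cannot be told apart. Below, "with senescence" means senescent control against control. Column names of the knockout libraries carry "vec" and those of the senescent control do not, so depletion of METTL3 and exposure to a lentivirus cannot be told apart in comparisons with the senescent control. Nothing says that replicates came from separate cultures. The p-values below therefore rest on sample-to-sample spread that may be technical.

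Glycolysis begins when glucose enters the cell through facilitative transporters and is trapped as glucose 6-phosphate by a hexokinase. Phosphofructokinase makes the committed step and is stimulated by fructose 2,6-bisphosphate, the product of PFKFB3. The later enzymes recover ATP and form pyruvate, and LDHA reduces pyruvate to lactate while restoring NAD+. Many of these genes are known targets of the hypoxia-inducible factor HIF-1, which binds the letters ACGTG or GCGTG, and senescent fibroblasts, although they no longer divide, are known to stay metabolically active.

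Promoters of 9 of the 10 genes were found in RefSeq (GRCh38.p14), and none was listed for SLC2A3. The 250 bases before each start site were searched on both strands for ACGTG, for GCGTG and for CACGTG, the E-box, which itself holds the first of these. The first occurred in 3 of 9 (HK2, PGK1 and LDHA), against 18.7% of 27305 human promoters of the same length. The second, GCGTG, occurred in 4 of 9 (HK2, PFKFB3, PGK1 and ENO1), against 31.9%. CACGTG occurred in LDHA alone, against 6.49%. Either core stood in 5 of 9, against 43.1% of all promoters. SLC2A1, HK1, PFKP and PKM had no match in this window. Only 1 start site per gene was searched, and whether it is the one used in these cells was not tested. The HK1 window held 46.8% G and C, against 68.4% to 79.2% in the windows of the other genes. The median over all promoters was 58%, and the shares of all promoters given above were not matched for G and C. The 4 stretches below come from genes with a match. They belong to the gene with the widest range of levels (LDHA), to genes that moved with it (PGK1 and ENO1) and to HK2, which did not. PKM and PFKP, whose levels also moved with those of LDHA, held no match and are not shown. Capitals mark ACGTG or GCGTG on either strand, read 5′ to 3′ on the gene's strand. Each is a match of letters, not a measured binding site. The stretches lie at chr11:18394358-18394514 (plus strand, LDHA), chrX:78104017-78104089 (plus strand, PGK1), chr1:8878734-8878872 (minus strand, ENO1) and chr2:74833878-74834103 (plus strand, HK2), all upstream of the start site in GRCh38.p14.
LDHA: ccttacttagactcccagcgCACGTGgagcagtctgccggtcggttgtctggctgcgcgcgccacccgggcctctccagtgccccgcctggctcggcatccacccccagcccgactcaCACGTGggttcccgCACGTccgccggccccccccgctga
PGK1: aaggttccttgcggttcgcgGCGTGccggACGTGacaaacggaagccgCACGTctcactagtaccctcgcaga
ENO1: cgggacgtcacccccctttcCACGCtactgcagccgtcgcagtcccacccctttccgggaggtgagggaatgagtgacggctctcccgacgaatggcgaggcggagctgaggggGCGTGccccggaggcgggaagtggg
HK2: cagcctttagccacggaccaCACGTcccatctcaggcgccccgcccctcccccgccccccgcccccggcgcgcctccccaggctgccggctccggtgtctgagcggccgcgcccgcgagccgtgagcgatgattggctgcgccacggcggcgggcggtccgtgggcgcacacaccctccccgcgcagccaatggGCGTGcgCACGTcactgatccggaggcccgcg
LDHA carried its matches at 3 places, 2 of them E-boxes, and PGK1 carried 3 in the 73 bases shown. ENO1 held 2 places and HK2 held 3.

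Libraries held 16293975 to 23570266 counts. METTL3 took 0.00704% and 0.00791% of counts in control, 0.0047% and 0.00562% in senescent control, and 0.00246% and 0.00304% in the knockout, where METTL3 fell by 1.00 on the log2 scale against senescent control (edgeR adjusted p = 0.000872). METTL3 reached 5.86% and 5.87% in the wild type knock-in, and 11.3% and 14.2% in the mutant knock-in, so the knock-in groups also differ in METTL3 level. Between-replicate differences were widest in control, at a chi-square of 37.7 per gene against 5.47 to 7.93 in the other groups, and control sample 1 was above control sample 2 for all 10 genes. All 8 fibroblast markers (COL1A1, COL1A2, COL3A1, VIM, THY1, PDGFRB, DCN, LUM) were detected in every group. Their summed level was 14540 to 17840 CPM (counts scaled to a common library total) in control, 9487 to 10240 in senescent control, 9983 to 10560 in the knockout, 7785 to 8273 in the wild type knock-in and 5108 to 5784 in the mutant knock-in. Leukocyte, endothelial and erythroid lists summed to at most 9.44, 4.43 and 0.38 CPM in any sample, with CD3E and CLDN5 at 0 throughout. The leukocyte list was highest in the mutant knock-in (6.56 to 9.44 CPM) and lowest in control (0.963 to 1.25 CPM). Epithelial markers, mostly keratins, ran from 21.3 to 73.8 CPM. The part of these shifts in the results below was not tested, and in bulk RNA fewer cells of a type and less RNA per cell cannot be told apart.

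Levels below are CPM of library totals scaled by TMM, a method that corrects for libraries dominated by a few genes. Differences are log2 fold changes with a standard error (SE). A gene is said to have risen, fallen or passed only where edgeR's quasi-likelihood test, adjusted over 16760 genes by Benjamini-Hochberg, gave an adjusted p under 0.05. All 10 genes passed the low-count filter. Statements on overlap only describe the samples, since how often groups of 2 lie apart among all genes was not computed. For wild type knock-in against knockout, 9 of the 10 genes had groups that did not overlap, although 6 of 10 did not pass.

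SLC2A1 encodes GLUT1, the main basal glucose transporter of fibroblasts. Its level was 263.5 and 213.4 CPM in control, 119.4 and 144.1 in senescent control, 202.0 and 222.2 in the knockout, 126.6 and 137.0 in the wild type knock-in, and 118.7 and 118.7 in the mutant knock-in. Control and knockout samples were high and overlapped, while senescent control and both knock-ins were low, with senescent control overlapping the wild type knock-in. SLC2A3 encodes GLUT3, a transporter with a higher affinity for glucose. It measured 109.7 and 104.2 CPM in control, 145.8 and 161.3 in senescent control, 130.2 and 140.3 in the knockout, 176.8 and 183.8 in the wild type knock-in, and 133.4 and 137.3 in the mutant knock-in. Here control was lowest and the wild type knock-in highest, with only knockout and mutant knock-in overlapping among neighbours in the order. SLC2A14, a near-identical copy of SLC2A3 whose reads may be divided with it, stayed between 1.05 and 2.09 CPM.

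HK1 is the housekeeping hexokinase, bound to mitochondria. HK1 was at 161.0 and 145.3 CPM in control, 200.4 and 200.5 in senescent control, 140.0 and 134.1 in the knockout, 141.1 and 147.2 in the wild type knock-in, and 123.6 and 120.3 in the mutant knock-in. Senescent control stood above all other groups and the mutant knock-in below them. HK2 is the inducible hexokinase. HK2 was at 63.99 and 52.94 CPM in control, 185.6 and 192.2 in senescent control, 82.77 and 91.78 in the knockout, 92.07 and 95.26 in the wild type knock-in, and 103.3 and 103.4 in the mutant knock-in. No neighbouring groups overlapped for HK2, and the highest group mean was 3.23 times the lowest.

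PFKP, the platelet-type subunit of phosphofructokinase, stood at 187.3 and 166.4 CPM in control, 94.26 and 93.04 in senescent control, 67.25 and 67.33 in the knockout, 62.84 and 68.31 in the wild type knock-in, and 55.29 and 52.95 in the mutant knock-in. The order ran downwards from control, and only knockout and wild type knock-in overlapped. PFKFB3 was measured at 76.86 and 64.1 CPM in control, 55.99 and 54.28 in senescent control, 38.27 and 39.69 in the knockout, 43.69 and 49.52 in the wild type knock-in, and 49.74 and 52.38 in the mutant knock-in. Unlike PFKP, it was lowest in the knockout, with both knock-ins above it and no overlap between neighbours.

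PGK1 makes the first ATP of glycolysis. PGK1 levels were 318.7 and 288.1 CPM in control, 247.1 and 252.4 in senescent control, 209.5 and 211.8 in the knockout, 156.5 and 166.6 in the wild type knock-in, and 131.2 and 127.9 in the mutant knock-in. ENO1, the enolase that forms phosphoenolpyruvate, was at 902.1 and 811.2 CPM in control, 648.6 and 637.3 in senescent control, 481.8 and 472.3 in the knockout, 418.6 and 440.2 in the wild type knock-in, and 343.5 and 321.0 in the mutant knock-in. Sample levels of both genes descended from group to group without overlap, but not every step passed. PGK1 did not pass for knockout against senescent control (log2 fold change −0.25, edgeR adjusted p = 0.0757). ENO1 did not pass for wild type knock-in against knockout (log2 fold change −0.15, edgeR adjusted p = 0.206). PKM, which encodes the muscle-type pyruvate kinases PKM1 and PKM2 that gene counts do not separate, was at 2160 and 1846 CPM in control, 1621 and 1627 in senescent control, 1163 and 1174 in the knockout, 1110 and 1147 in the wild type knock-in, and 852.5 and 792.6 in the mutant knock-in. LDHA was at 879.8 and 834.1 CPM in control, 707.3 and 703.8 in senescent control, 461.7 and 440.8 in the knockout, 254.4 and 286.9 in the wild type knock-in, and 224.4 and 210.0 in the mutant knock-in. Neither PKM nor LDHA had overlapping neighbours, but PKM did not pass for wild type knock-in against knockout (log2 fold change −0.05, edgeR adjusted p = 0.721). The ratio of highest to lowest group mean was 3.95 for LDHA, 2.58 for ENO1, 2.44 for PKM and 2.34 for PGK1. Reads of pseudogenes of PGK1, ENO1, PKM and LDHA may be divided with these genes in ways that the deposited counts do not show.

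**Figure D1:**
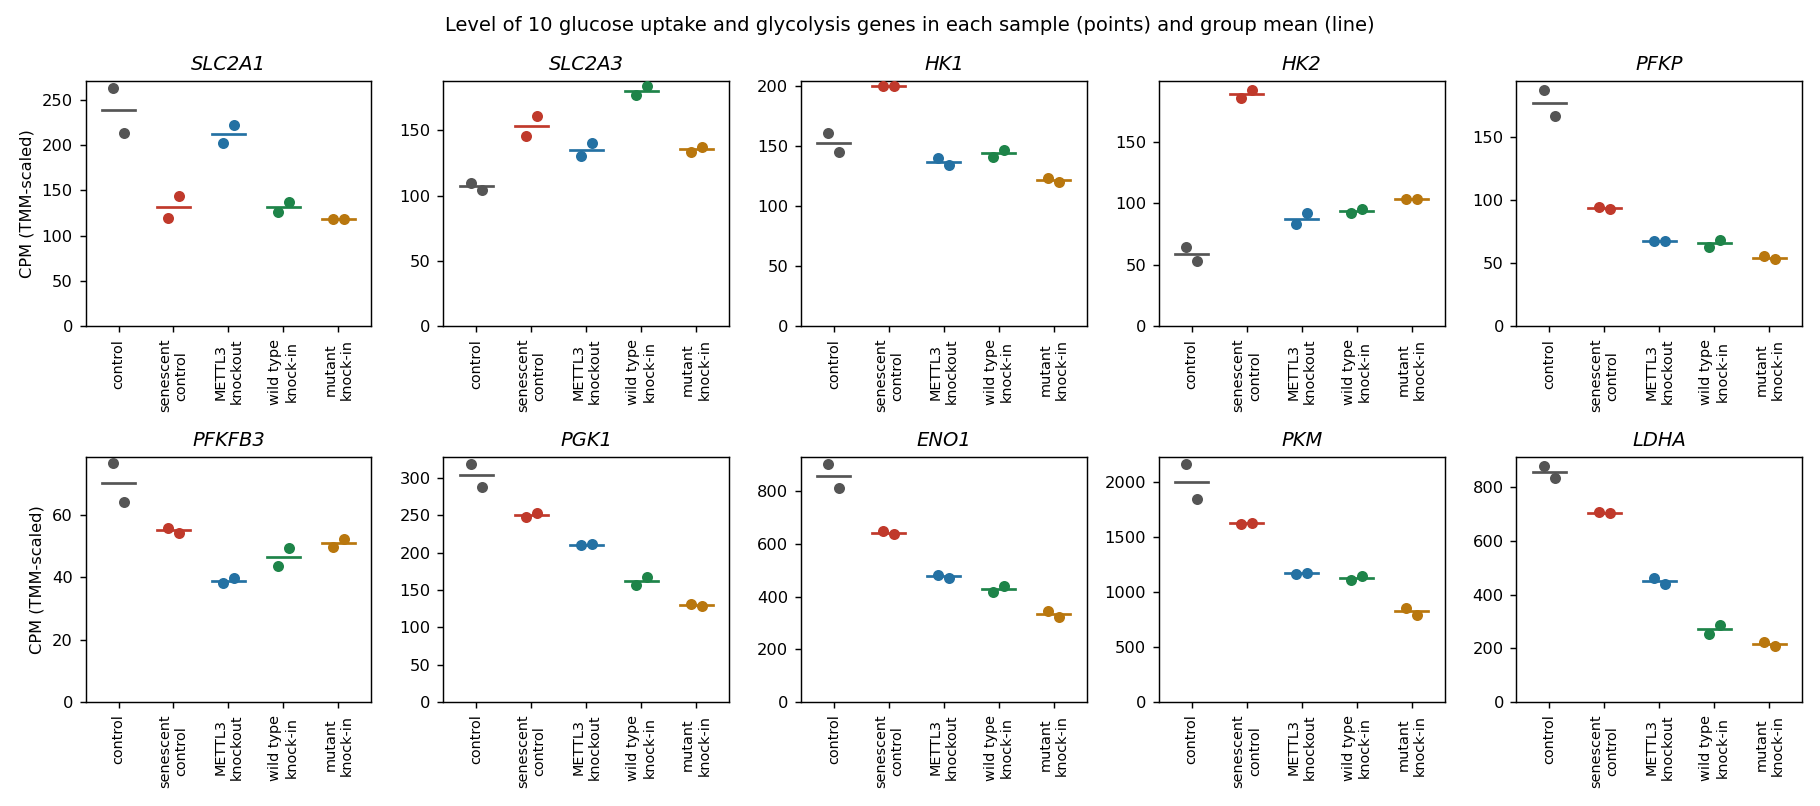
Level of each of the 10 genes in CPM of TMM-scaled totals (vertical axis, starting at 0) in the 5 groups (horizontal axis), with 1 point per sample and a line at the group mean. Group means of PGK1, ENO1, PKM, LDHA and PFKP descend from control to the mutant knock-in, although not every step passed. HK2 and HK1 peak in senescent control, and SLC2A1 is high in control and knockout.

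Divided by the length of the principal transcript, the genes could be compared with each other. PKM had the highest mean level per kilobase in all 5 groups, at 737 CPM per kb in control, 598 in senescent control, 430.1 in the knockout, 415 in the wild type knock-in and 303 in the mutant knock-in. On the same scale LDHA was close to ENO1 in control, at means of 355 and 365 CPM per kb, and below it in the mutant knock-in, at 89.9 and 142. HK2 was the lowest of the 10 in control at 10.1 CPM per kb, and PFKFB3 was the lowest in the other 4 groups, at 8.70 to 12.3. The 10 genes summed to 5123 and 4525 CPM in control, 4026 and 4066 in senescent control, 2977 and 2994 in the knockout, 2583 and 2721 in the wild type knock-in, and 2136 and 2037 in the mutant knock-in. PKM, ENO1 and LDHA make up most of that sum, so it mainly follows the lower enzymes.

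Senescent control was compared with control to ask how these genes differed in RAS-expressing senescent cells. HK2 rose by 1.69 (SE 0.10) on the log2 scale, a 3.23-fold difference, and SLC2A3 and HK1 rose by 0.52 (SE 0.09) and 0.39 (SE 0.09). SLC2A1 fell by 0.86 (SE 0.12) and PFKP fell by 0.92 (SE 0.09), each to little more than 0.5 of the control level (ratios 0.553 and 0.530). The remaining enzymes fell less: ENO1 fell by 0.41, PFKFB3 by 0.35, PKM by 0.30, PGK1 by 0.28 and LDHA by 0.28. In all, 3 of 10 genes were higher and 7 of 10 lower, against 19.7% and 25.3% of all genes tested, and the median difference of the 10 was −0.29 against −0.03 for all genes. The transporters SLC2A1 and SLC2A3 thus moved in opposite directions, while both hexokinases rose. Adjusted p in edgeR ran from 9.6e-08 (HK2) to 0.0224 (LDHA). PFKFB3, PGK1, PKM and LDHA no longer passed when either senescent control sample was left out or when only these groups were fitted, with adjusted p up to 0.137, 0.164, 0.138 and 0.177 over 11 alternatives each, while their log2 fold changes in those fits stayed between −0.35 and −0.23. Without control sample 1 the differences of PFKFB3 and PKM were smaller, at −0.20 and −0.17, and did not pass (adjusted p = 0.0764 and 0.0768). LDHA also did not pass with upper-quartile scaling (adjusted p = 0.0508) or with METTL3 left out before scaling (adjusted p = 0.0530), at −0.23 and −0.24.

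The effect of lowering METTL3 RNA in senescent cells, where part of it was still detected, was assessed by comparing the knockout with senescent control. HK2 fell by 1.11 (SE 0.10), to 0.462 of the senescent control level, and SLC2A1 rose by 0.69 (SE 0.12), a 1.61-fold difference. LDHA fell by 0.64 (SE 0.09) and HK1 by 0.55 (SE 0.09). PFKFB3, PFKP, PKM and ENO1 fell by 0.50, 0.48, 0.48 and 0.43. Here 1 of 10 genes was higher and 7 of 10 lower, against 7.17% and 8.62% of all genes tested, and the median of the 10 was −0.48 against 0.01 for all genes. SLC2A3 had a log2 fold change of −0.18 (SE 0.09) and PGK1 of −0.25 (SE 0.09), which did not pass (edgeR adjusted p = 0.199 and 0.0757). SLC2A1, HK1 and HK2 changed in the direction opposite to their change with senescence, whereas PFKP, PFKFB3, ENO1, PKM and LDHA were lower in both. Since both comparisons contain the senescent control samples, such opposite signs can follow from those samples alone and are given as values. The PFKFB3 decrease did not pass without senescent control sample 1, knockout sample 1 or knockout sample 2 (adjusted p = 0.0682, 0.0745 and 0.0539), and that of ENO1 not without senescent control sample 1 or knockout sample 2 (adjusted p = 0.0606 and 0.0705). The log2 fold changes in these fits were −0.53 to −0.48 for PFKFB3 and −0.42 for ENO1. Over 11 alternatives the lowest adjusted p was 2.8e-06 for PFKFB3 and 9.1e-07 for ENO1.

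Set directly against the non-senescent control, the knockout had 2 genes higher and 6 lower, against 19.7% and 26.7% of all genes tested. HK2 was above control by 0.58 (SE 0.10) and SLC2A3 by 0.34 (SE 0.09). PFKP fell by 1.39 (SE 0.09), LDHA by 0.93, PFKFB3 by 0.85, ENO1 by 0.84, PKM by 0.78 and PGK1 by 0.53. SLC2A1 differed by −0.17 (SE 0.12, edgeR adjusted p = 0.261) and HK1 by −0.16 (SE 0.09, adjusted p = 0.146), with SLC2A1 passing only without control sample 2 (adjusted p = 0.021) and HK1 likewise (adjusted p = 0.0354). Over the 11 alternatives adjusted p reached 0.976 for SLC2A1 and 0.629 for HK1. SLC2A3 did not pass without knockout sample 2 (adjusted p = 0.064). Over all genes, 3300 were higher and 4472 lower, which became 3988 and 3540 with upper-quartile scaling.

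The knock-ins, in which METTL3 counts were far above those of control, were compared with the knockout to ask what added METTL3 did. With wild type METTL3, LDHA fell further by 0.74 (SE 0.09), to 0.600 of the knockout level, SLC2A1 fell by 0.69 (SE 0.12) and PGK1 fell by 0.38 (SE 0.09). SLC2A3 rose by 0.41 (SE 0.09). This made 1 of 10 higher and 3 of 10 lower, against 18.5% and 14.8% of all genes tested, and the other 6 did not pass, among them HK2 at 0.10 (SE 0.10) and HK1 at 0.07 (SE 0.09). SLC2A3 no longer passed without knockout sample 1 (edgeR adjusted p = 0.0717, the highest of 11 alternatives, the lowest being 4.8e-05). With mutant METTL3, LDHA fell by 1.05 (SE 0.09), SLC2A1 by 0.84 (SE 0.12), PGK1 by 0.70 (SE 0.09), ENO1 by 0.52, PKM by 0.51 and PFKP by 0.31. PFKFB3 rose by 0.39 (SE 0.11). The mutant thus had 1 of 10 higher and 6 of 10 lower than the knockout, against 24.1% and 24.3% of all genes tested. PFKP did not pass without knockout sample 1 or 2 (adjusted p = 0.0542 and 0.0515), and PFKFB3 not without knockout sample 1, knockout sample 2 or mutant sample 2 (adjusted p = 0.0906, 0.0617 and 0.112). The lowest adjusted p over the 11 alternatives was 0.00044 for PFKP and 5e-05 for PFKFB3.

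Mutant and wild type knock-in were compared with each other as well. PKM fell by 0.46 (SE 0.09), SLC2A3 by 0.41 (SE 0.09), ENO1 by 0.37 (SE 0.09), PGK1 by 0.32 (SE 0.09) and LDHA by 0.32 (SE 0.09) in the mutant. None of the 10 was higher and 5 were lower, against 5.16% and 7.39% of all genes tested; 0 were higher also in DESeq2 and at an unadjusted p under 0.05. SLC2A1, HK1, HK2, PFKP and PFKFB3 did not pass, with log2 fold changes of −0.15, −0.24, 0.14, −0.28 and 0.13. Without wild type sample 2 or without mutant sample 2 none of the 10 passed in edgeR (0 of 10 each), in fits where calls over all genes went from 2103 to 152 and 123. In those fits the log2 fold changes were −0.43 to −0.25 for PKM, SLC2A3, ENO1 and PGK1, and −0.21 and −0.26 for LDHA. Without mutant sample 1 PKM alone passed, and without wild type sample 1 PGK1 did not (−0.38, adjusted p = 0.0542). Over 11 alternatives adjusted p ran from 5.3e-05 to 0.124 for PKM, 0.000526 to 0.138 for SLC2A3, 0.00141 to 0.175 for ENO1, 0.00423 to 0.257 for PGK1 and 0.00694 to 0.337 for LDHA. Over all genes, 865 were higher and 1238 lower, which became 1056 and 773 with upper-quartile scaling, a scaling under which PGK1 and LDHA did not pass (adjusted p = 0.0709 and 0.0754). LDHA also did not pass with METTL3 left out before scaling (0.0598) or with a replicate block (0.0531).

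Against senescent control itself, both knock-ins were low for the same 7 genes. In the wild type knock-in LDHA fell by 1.38 (SE 0.09), HK2 by 1.01 (SE 0.10), PGK1 by 0.63, ENO1 by 0.58, PKM by 0.53, PFKP by 0.51 and HK1 by 0.48. No gene was higher and 7 of 10 were lower, against 20.8% and 19.1% of all genes tested. In the mutant knock-in LDHA fell by 1.70 (SE 0.09), PKM by 0.98, ENO1 by 0.95, PGK1 by 0.95, HK2 by 0.87, PFKP by 0.79 and HK1 by 0.72. Again none was higher and 7 of 10 were lower, against 27% and 26.3% of all genes tested. DESeq2 also found 0 higher in both comparisons, and at an unadjusted p under 0.05 edgeR gave 1 in the wild type (SLC2A3, at 0.23) and 0 in the mutant knock-in. SLC2A1, SLC2A3 and PFKFB3 did not pass in either comparison, and SLC2A1 had a log2 fold change of 0.00 (SE 0.12) in the wild type knock-in. Every decrease named in this paragraph passed under all 11 alternatives, with adjusted p of at most 0.0149. Both comparisons share the senescent control samples. The summed fibroblast markers were also lower in both knock-ins than in senescent control, as given above, but single markers went both ways. In the wild type knock-in 4 of the 8 markers were lower and 2 higher (1 higher in DESeq2). In the mutant 6 were lower and 1 was higher. The shares of all genes tested are those given in this paragraph.

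**Figure D2:**
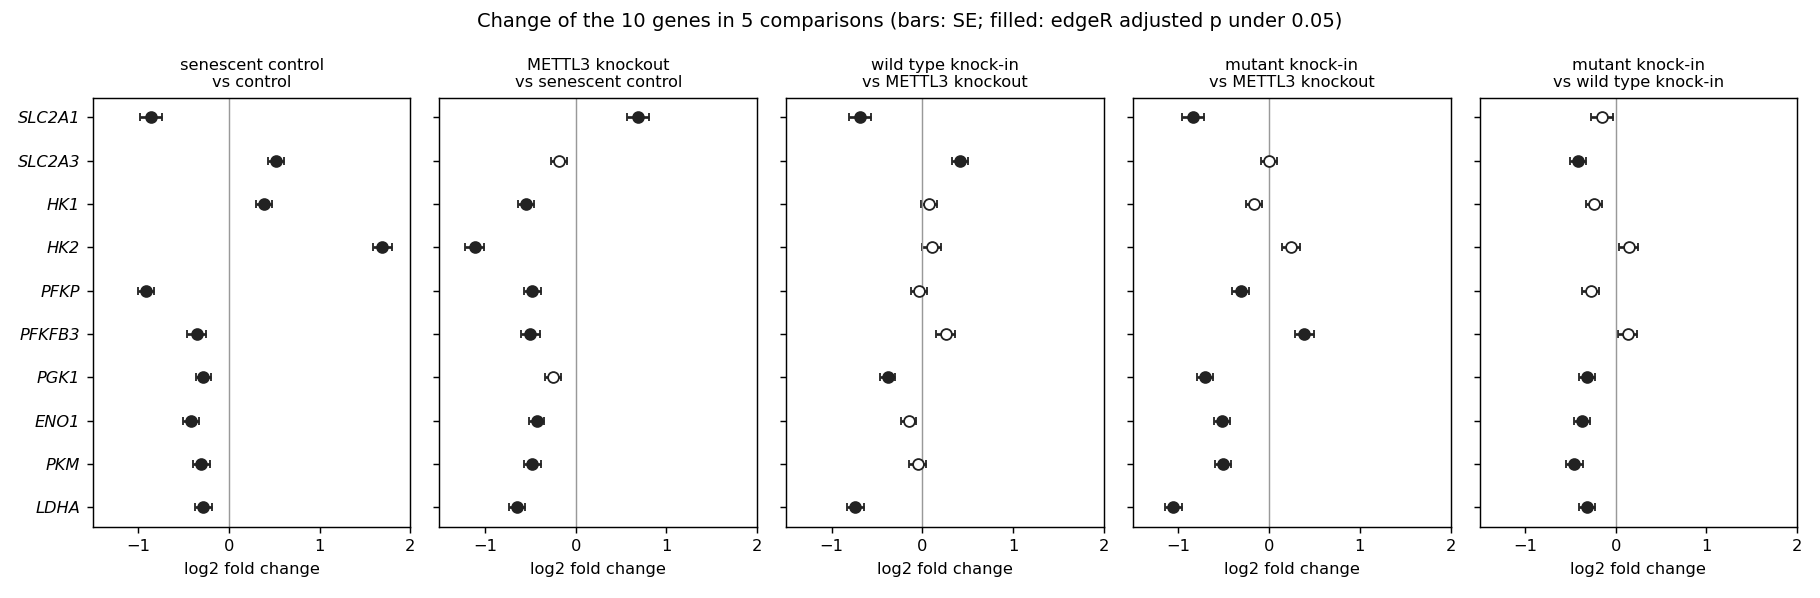
Log2 fold change (horizontal axis) of each of the 10 genes (vertical axis) in 5 comparisons, with bars for the SE and filled points where the edgeR adjusted p is under 0.05. HK2 moves by 1.69 and −1.11 in the first pair of panels, and LDHA is negative and filled in all 5 panels.

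Related genes that catalyse the same step changed their balance. Shares were computed per length of the principal transcript and describe these samples without a test. SLC2A3 made up 29.7% ± 2.35 (SD, n = 2) of the level of SLC2A1 and SLC2A3 together in control, 52.3% ± 1.53 in senescent control, 37.4% ± 0.33 in the knockout, 56.2% ± 0.69 in the wild type knock-in and 51.7% ± 0.51 in the mutant knock-in. The knockout thus lay between control and the other senescent groups, with no overlap. HK2 made up 19.2% ± 0.95 of HK1 and HK2 in control, 37.1% ± 0.56 in senescent control, 28.5% ± 2.11 in the knockout, 28.9% ± 0.12 in the wild type knock-in and 34.6% ± 0.46 in the mutant knock-in. HK1 therefore kept the larger share in every group. PFKP fell from 63.3% ± 0.89 of the 3 phosphofructokinase genes PFKL, PFKM and PFKP in control to 50.5% ± 0.82 in senescent control, and lay between 45.6% and 47.8% in the 6 samples of the other groups. LDHA made up 72.0% ± 2.50 of LDHA and LDHB in control, 71.9% ± 0.61 in senescent control and 66.2% ± 0.54 in the knockout. It made up 54.6% ± 1.04 in the wild type and 54.3% ± 0.47 in the mutant knock-in. LDHB, the heart-type subunit, went from a mean of 212.6 CPM in control to 116.5 in the mutant knock-in.

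**Figure D3:**
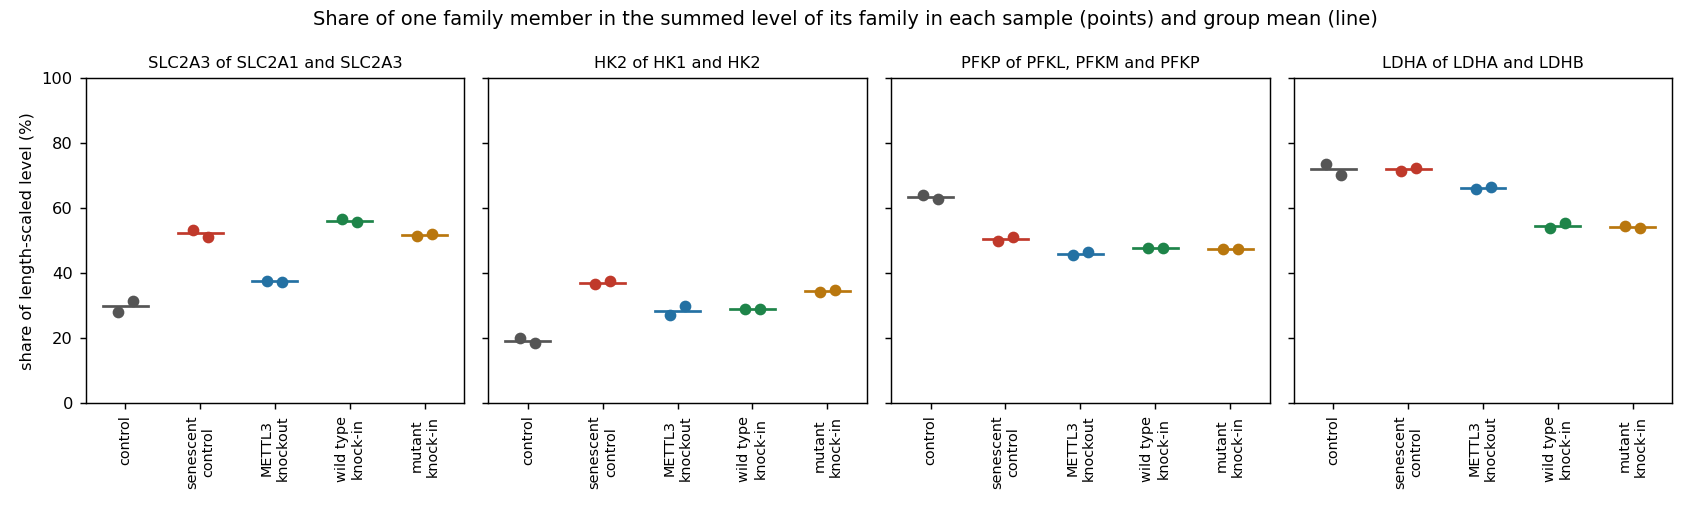
Share in percent (vertical axis, 0 to 100) of SLC2A3, HK2, PFKP and LDHA in the length-scaled level of the named family members, for each sample (points) and group mean (lines) in the 5 groups. The share of SLC2A3 is 29.7% in control and 52.3% in senescent control, and that of LDHA is 54.3% to 54.6% in the knock-ins.

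The rest of the pathway was described from lists of genes that hold none of the 10. Of 20 other glycolytic enzymes 13 were tested. With senescence 2 were higher, BPGM by 1.84 (SE 0.09) and ENO2 by 0.46 (SE 0.10), and 6 were lower, with ALDOC at −0.98 (SE 0.16). Among all genes tested 19.7% were higher and 25.3% lower. DESeq2 gave 2 higher and 5 lower of the 13. BPGM makes 2,3-bisphosphoglycerate in a bypass of the PGK1 step, and ENO2 is the enolase of neurons. In the knockout against senescent control none was higher and 8 were lower, against 7.17% and 8.62% of all genes tested. BPGM was lowest at −1.45 (SE 0.09), and the median was −0.41 against 0.01 for all genes. DESeq2 and an unadjusted p under 0.05 also gave 0 higher. GAPDH, which supplies the substrate of PGK1, had mean levels of 4680, 3192, 2221, 1953 and 1309 CPM in control, senescent control, knockout, wild type and mutant knock-in. That is the same descending order as PGK1, ENO1, PKM and LDHA. BPGM instead peaked in senescent control, as HK2 did, at 26.96 and 27.23 CPM in control, 97.17 and 96.38 in senescent control, 34.69 and 36.19 in the knockout, and 54.3 to 59.78 in the knock-ins.

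Of the 13 enzymes, 10 were lower in the wild type knock-in than in senescent control, against 19.1% of all genes tested. In the mutant knock-in 10 were lower as well, ALDOA most at −1.31 (SE 0.10). ENO3 and HKDC1, which reached only 4.89 and 1.96 CPM, were the 2 that were higher. Among all genes tested 26.3% were lower and 27% higher, and DESeq2 gave only 1 of the 13 higher. Their median was −0.40 in the wild type and −0.73 in the mutant, against 0.03 and 0.04 for all genes. Mutant against wild type knock-in gave 6 lower, among them GAPDH and GPI at −0.58 each, against 7.39% of all genes tested. Against the knockout, the wild type knock-in had 3 higher and 2 lower, near the 18.5% and 14.8% of all genes tested. The mutant had 3 higher and 8 lower, against 24.1% and 24.3%. DESeq2 gave 2 higher in each. Regulators of fructose 2,6-bisphosphate other than PFKFB3 had 3 tested genes. With senescence TIGAR, a phosphatase that lowers it, rose by 0.66 (SE 0.12), PFKFB4 rose by 0.54 (SE 0.15) and PFKFB2 fell by 0.38 (SE 0.12). DESeq2 gave 2 of the 3 higher and 0 lower, so the PFKFB2 decrease did not pass in it.

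Neighbouring branches were counted in the same way. The pentose phosphate pathway, which draws glucose 6-phosphate off for NADPH and ribose, had 8 tested genes. With senescence 3 were lower, against 25.3% of all genes tested. In the knockout against senescent control 5 were lower (4 in DESeq2), against 8.62%, with a median of −0.41. In the mutant knock-in 7 of 8 were lower than in senescent control, against 26.3% of all genes tested. Of 7 genes of lactate and pyruvate transport, 2 were higher and 2 lower in the knockout than in senescent control. Among all genes tested 7.17% were higher and 8.62% lower. SLC16A1 and SLC16A3, the monocarboxylate transporters MCT1 and MCT4 that export lactate, fell by 0.77 (SE 0.09) and 0.60 (SE 0.10) in that comparison. MPC1 and MPC2, which carry pyruvate into mitochondria, rose by 0.39 and 0.50 in the same comparison. DESeq2 gave only 1 of the 7 genes higher there, so not both of these rises passed in it. The mutant knock-in had 6 of 7 below senescent control (5 in DESeq2), led by SLC16A3 at −1.26 (SE 0.10), against 26.3% of all genes tested.

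Other glucose transporters were mostly scarce, and 9 of 13 were tested. With senescence 3 were higher and 1 was lower, against 19.7% and 25.3% of all genes tested. SLC2A13, a transporter of myo-inositol in the same family, rose most, by 1.21 (SE 0.17), from 18.82 and 30.28 CPM in control to 53.68 and 59.85 in senescent control. SLC2A6 rose by 0.78 (SE 0.12) with senescence and fell in the knockout to 0.436 of the senescent control level, at 14.14 and 12.94 CPM in control, 23.36 and 23.15 in senescent control, and 9.18 and 11.06 in the knockout. SLC2A12 fell with senescence to 0.353 of the control level and was 1.86 (SE 0.17) higher in the mutant knock-in than in senescent control, on levels of at most 12.8 CPM. The knockout had 1 of 9 higher (SLC2A10 at 0.57) and 1 lower (SLC2A6) than senescent control, near the 7.17% and 8.62% of all genes tested.

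**Figure D4:**
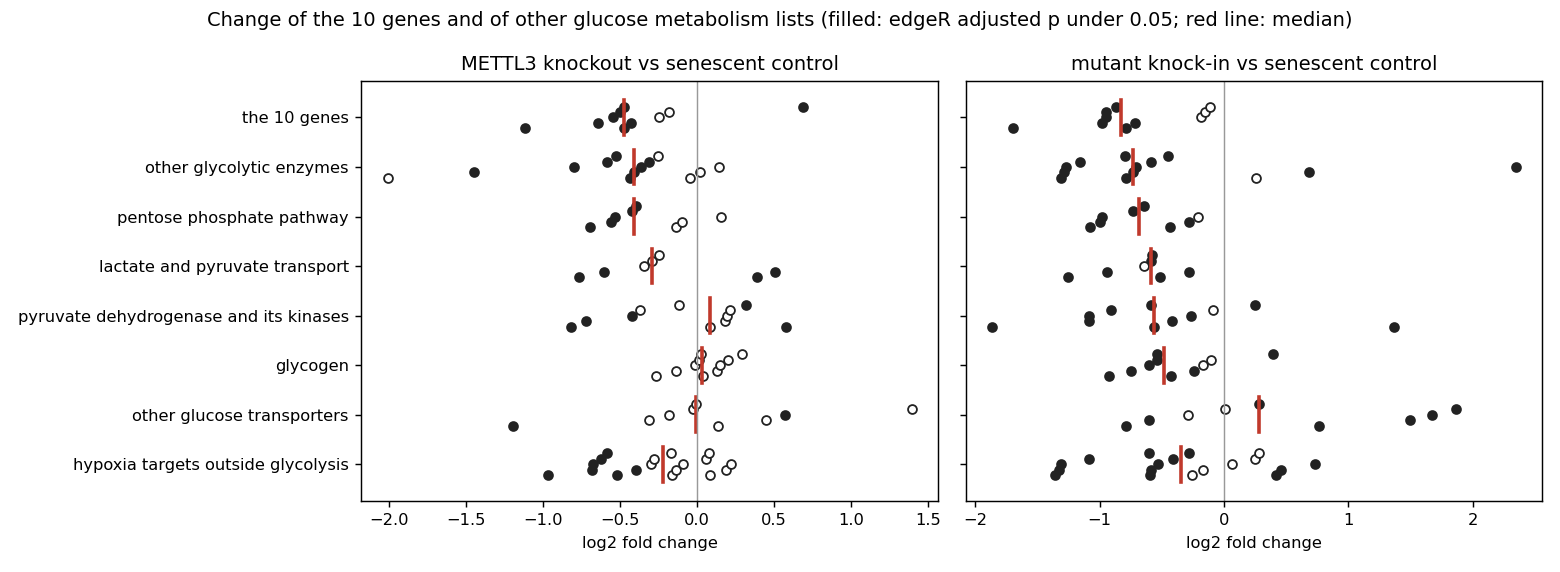
Log2 fold change (horizontal axis) of each tested gene in the 10 genes and in 7 lists of related genes (vertical axis), for the knockout and for the mutant knock-in, each against senescent control. Filled points have an edgeR adjusted p under 0.05 and red lines mark medians, which are −0.48 and −0.83 for the 10 genes and −0.41 and −0.73 for the other glycolytic enzymes.

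Regulators of these genes were examined last. HIF1A, the oxygen-regulated subunit of HIF-1, rose by 0.99 (SE 0.13) with senescence and fell by 0.92 (SE 0.13) in the knockout. Its levels were 497.9 and 687.6 CPM in control, 1148 and 1200 in senescent control, 610.5 and 628.8 in the knockout, 514.3 and 560.3 in the wild type knock-in, and 567.6 and 591.5 in the mutant knock-in. Senescent control stood apart from the other 8 samples, as it did for HK1 and HK2. HIF1A did not pass in either knock-in against the knockout (log2 fold changes −0.21 and −0.10, edgeR adjusted p = 0.24 and 0.56). Of 18 tested hypoxia targets outside glycolysis, 10 were higher and 3 lower with senescence (9 and 3 in DESeq2). Among all genes tested 19.7% were higher and 25.3% lower. The extremes were ANGPTL4 at 2.90 (SE 0.19) and CA12 at −0.82 (SE 0.11). In the knockout 7 were lower than senescent control (6 in DESeq2), against 8.62% of all genes tested. ANGPTL4 was at −0.97 (SE 0.16), and the median of the 18 was −0.22. Of the 10 genes, many of them known HIF-1 targets, HK2, SLC2A3 and HK1 rose and the other 7 fell with senescence. The lost calls of PFKFB3, PGK1, PKM and LDHA are given above. Of 12 tested transcription factors known to act on glycolysis genes, 3 rose and 3 fell with senescence, shares near those of all genes (19.7% and 25.3%). Among the 3 that rose, the change was greatest for HIF1A. RNA levels do not measure HIF-1 protein, which is regulated mainly by its breakdown.

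Genes whose pattern was most like each of the 10 were found by Pearson's r of log2 CPM over the 10 samples, as a description. PKM was nearest to PGAM1 (r = 0.999) and ENO1 to GAPDH (r = 0.998), both glycolytic enzymes. PGK1 was nearest to KARS1 (r = 0.997), LDHA to C14orf132 (r = 0.997) and PFKP to BCL2L12 (r = 0.997). SLC2A1 was nearest to CCN1 (r = 0.992), HK2 to TNFRSF10B (r = 0.990), HK1 to PDLIM1 (r = 0.987), PFKFB3 to GLI1 (r = 0.976) and SLC2A3 to LINC00888 (r = 0.963). Samples of a group are close together, so these values mostly reflect 5 group means. Among the 10 genes, PGK1, ENO1, PKM and LDHA had r between 0.952 and 0.993 with each other, and PFKP had r between 0.881 and 0.961 with them. HK2 had r between −0.19 and −0.05 with those 4 genes, and SLC2A1 and SLC2A3 had r = −0.64 with each other.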

How the data were processed

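RNA of 10 IMR90 samples was sequenced after RNeasy extraction, DNase I digestion and KAPA RNA HyperPrep library preparation, per the labels' protocols. Bowtie2 (version not given), RSEM 1.2.12 and hg19 are named in the submitters' processing notes. The authors deposited whole-number counts per Ensembl gene. Annotation, strand setting and treatment of reads shared between near-identical genes were not given in the sources used here. From these counts edgeR 4.0.16 in R 4.3.3 fitted 1 coefficient per group to all 10 samples (5 residual degrees of freedom; TMM scaling; filterByExpr, minimum count 10; robust quasi-likelihood F test, two-sided). SEs were computed from fold change and F. The procedure was tested on simulated data. DESeq2 1.42.0, other scalings, METTL3 left out, no low-count filter, a replicate block, fits of only the groups compared and each replicate left out were tried. Length scaling used the principal transcripts of GENCODE 29, an annotation of another build. Promoters came from RefSeq, also of another build than hg19. The 10 genes are all named; other genes are named where they changed most in a list and comparison, are related to one of the 10, or are nearest in pattern over log2 CPM (prior count 2). Levels given for further genes were chosen after their values were seen. Genes and lists were chosen with earlier results of these data known. TXNIP and PECAM1 were not analysed here, and 3 genes of the lists are not reported here by name.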

Additional observations from a re-analysis of the deposited data

How the results depend on the processing

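No log2 fold change of the 10 genes that passed changed sign under any alternative, and each of the 80 comparisons of 1 gene kept its call with DESeq2 and with RLE scaling. Fitting only the groups compared ended 4 of these calls and added 11. Leaving out 1 replicate also ended some calls, each named with its comparison above, and added a few. Of the 10 genes, 6 rather than 10 passed for senescent control against control when only those groups were fitted (6 to 10 with 1 replicate left out), and 3 rather than 5 for mutant against wild type knock-in with upper-quartile scaling (0 to 4 with 1 replicate left out). Over all genes, fitting only the groups compared gave 5621 rather than 2646 calls for knockout against senescent control, 4078 rather than 2103 for mutant against wild type knock-in, and 5108 rather than 7772 for knockout against control. With 1 replicate left out, these counts ran from 1198 to 1368, from 123 to 1178 and from 5014 to 9129. They ran from 4367 to 5367 (all samples: 6679) for wild type knock-in against senescent control, and from 3390 to 4150 (all samples: 5584) for wild type knock-in against knockout. Fewer samples were fitted in each of these, yet calls went up in some and down in others. The fit of all samples used 1 spread per gene for every group, and replicates differed most in control, as given above. In fits without 1 replicate, the lone sample left in a group was assumed to vary like the others. Causes of these shifts were not tested. Deviations of same-numbered samples correlated at −0.12 to 0.06 over 10 pairs of groups, with 0 over 0.1. No pairing by replicate number was seen, but with 2 samples a group this cannot show whether such samples shared a culture. With the replicate block 4 rather than 5 of the genes passed for mutant against wild type knock-in, and 2538 genes in all for knockout against senescent control. With 2 samples a group, small differences have little support whatever the depth.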

Other observations

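RNA of genes of the pyruvate dehydrogenase complex, which turns pyruvate into acetyl-CoA, and of its regulators changed in both directions. Of 11 such genes tested, 8 were lower and 2, which encode regulators, were higher in the mutant knock-in than in senescent control. DESeq2 gave 7 and 1, and among all genes tested 26.3% were lower and 27% higher. DLD, the shared dehydrogenase subunit, was at 116.3 and 122.9 CPM in senescent control, 71.75 and 73.22 in the knockout, 49.05 and 49.99 in the wild type knock-in, and 33.4 and 32.18 in the mutant knock-in, and fell by 1.87 (SE 0.19) between the first and last of these groups (edgeR). PDP1, the phosphatase that activates the complex, was at 49.35 and 57.07 CPM in senescent control and 132.3 and 142.4 in the mutant knock-in, where it was 1.37 (SE 0.10) higher. In the knockout, 3 of the 11 were lower and 2 higher than in senescent control (2 and 1 in DESeq2), against 8.62% and 7.17% of all genes tested.

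Of 10 tested glycogen genes, 0 passed in edgeR or DESeq2 for the knockout against senescent control. Among all genes tested 7.17% were higher and 8.62% lower there in edgeR. Of the 10, 1 in each direction had an unadjusted p under 0.05 in edgeR. Against the same senescent control samples, 7 of the 10 were lower and 1 was higher in the mutant knock-in. DESeq2 gave 6 lower and 0 higher, and among all genes tested 26.3% were lower and 27% higher. PCK2, the mitochondrial enzyme that makes phosphoenolpyruvate from oxaloacetate, was scarce in senescent control (3.13 and 2.05 CPM) and knockout (3.06 and 3.29 CPM) and higher in wild type (11.17 and 8.58 CPM) and mutant knock-in (10.2 and 10.07 CPM). ARRDC4, a gene induced by glucose through the sensor MondoA, was at 22.81 and 26.79 CPM in control, 135.0 and 124.8 in senescent control, 79.37 and 67.38 in the knockout, and 71.27 to 98.35 in the knock-ins. ARRDC4 rose by 2.39 (SE 0.12) with senescence and fell by 0.82 (SE 0.11) in the knockout.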
